A study of Mus musculus with 21 samples.

Results

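The data followed 7 genes that encode subunits of ligand-gated chloride channels across spiral ganglion neurons (SGNs, the auditory neurons that carry signals from hair cells to the brainstem) of 5 ages, hair cells (HCs) and cochlear glia. The members were chosen by name: 4 GABA-A receptor alpha subunit genes (Gabra2, Gabra3, Gabra4 and Gabra5), the beta subunit genes Gabrb1 and Gabrb2, and Glrb, the beta subunit gene of the glycine receptor. They make up 7 of the 24 GABA-A and glycine receptor genes found by symbol and 7 of the 52403 genes that the table gives with a symbol. All animals were C57BL/6 mice, and all cells were taken by a tdTomato label. SGNs carried ShhCre/+ with Rosa26-CAG-loxp-stop-loxp-tdTomato/+ (Ai9) and were hand-picked at 5 ages from E15.5 (E, embryonic day) to P30 (P, postnatal day), with P1, P8 and P14 between them, and each age gave 3 libraries of 69 to 195 cells. HCs of P12 came from Atoh1-CreER+ mice with the same reporter, induced with tamoxifen at P0 and P1, and mixed cochlear with vestibular cells at about 1200 cells in each of 3 libraries. Glia of P8 came from vGlut3-iCreER/+ mice with the same reporter, induced at P2 and P3, with 86 to 125 cells in each of 3 libraries. Each Cre line labels what it has recombined in, so the SGN libraries mix type I and type II neurons and the glial libraries mix the glial types of the ganglion area. The comparisons asked how each subunit changed as SGNs matured and whether it was higher in SGNs than in the other inner ear cells.

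GABA-A receptors are pentameric chloride channels opened by GABA. They are most often built from alpha and beta subunits together with a gamma or delta subunit, and the alpha subunit sets much of the channel's pharmacology and kinetics. In developing brain, alpha2, alpha3 and alpha5 are widespread early. Glycine receptors are built from alpha subunits alone or from alpha subunits with the beta subunit, which binds the scaffold protein gephyrin and holds the receptor at synapses; alpha homomers also conduct, whereas the beta subunit alone does not form a working channel. In the cochlea, GABA is best known as a transmitter of olivocochlear efferent fibres that end beneath the HCs and on SGN dendrites.

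The members lie on 5 chromosomes of GRCm38. Gabra2 (ENSMUSG00000000560.9, chr5:70957597-71095849, minus strand), Gabra4 (ENSMUSG00000029211.11, chr5:71569749-71658308, minus strand) and Gabrb1 (ENSMUSG00000029212.11, chr5:71658113-72149037, plus strand) sit in one cluster. Gabra3 (ENSMUSG00000031343.13) is at chrX:72432681-72656848 on the minus strand, Gabra5 (ENSMUSG00000055078.7) at chr7:57407672-57510059 on the minus strand, Gabrb2 (ENSMUSG00000007653.12) at chr11:42419757-42629028 on the plus strand, and Glrb (ENSMUSG00000028020.16) at chr3:80843599-80913660 on the minus strand. Gabra4 and Gabrb1 are head to head and their annotated spans share 196 bases, of which 46 are exonic in both. Gabra5 shares 148 exonic bases, 4.98% of its exon length, with the antisense gene Gm9962. The counting was not stated to use strand, so reads in those shared bases cannot be assigned to a strand.

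RefSeq gave 11 transcription starts for the 7 members. The bases upstream of 5 of them, up to 250 each, are shown for members that differ in their course over SGN ages: Glrb (chr3:80913661-80913910, minus strand), which had the largest rise, Gabra3 at one of its 2 starts (chrX:72656920-72657169, minus strand) and Gabra5 (chr7:57510060-57510309, minus strand), which fell, Gabrb2 at its first start (chr11:42420190-42420439, plus strand), which was highest at P30, and Gabra4 (chr5:71658364-71658558, minus strand, the 195 bases clear of a Gabrb1 exon), which had its highest mean at P1. Sequences are from RefSeq on GRCm38.p6, written 5′ to 3′ on the strand of the gene, and end at the base before the first transcribed base except for Gabra4, where 55 exonic bases are left out. Capitals mark the one motif found in a window, which for Gabra3 lies on the opposite strand.
Glrb: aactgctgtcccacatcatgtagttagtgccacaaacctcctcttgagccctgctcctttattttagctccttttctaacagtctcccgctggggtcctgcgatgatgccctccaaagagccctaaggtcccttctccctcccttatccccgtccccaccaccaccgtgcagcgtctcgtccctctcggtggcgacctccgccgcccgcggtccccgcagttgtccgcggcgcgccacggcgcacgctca
Gabra3: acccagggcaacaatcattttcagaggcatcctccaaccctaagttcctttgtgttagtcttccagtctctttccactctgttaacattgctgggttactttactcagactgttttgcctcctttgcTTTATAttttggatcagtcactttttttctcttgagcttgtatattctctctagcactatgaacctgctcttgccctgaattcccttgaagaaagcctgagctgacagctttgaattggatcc
Gabra5: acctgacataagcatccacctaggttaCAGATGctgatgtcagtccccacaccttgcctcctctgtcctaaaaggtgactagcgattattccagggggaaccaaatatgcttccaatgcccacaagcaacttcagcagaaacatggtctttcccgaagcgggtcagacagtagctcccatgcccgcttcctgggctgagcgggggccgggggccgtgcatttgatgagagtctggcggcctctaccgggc
Gabrb2: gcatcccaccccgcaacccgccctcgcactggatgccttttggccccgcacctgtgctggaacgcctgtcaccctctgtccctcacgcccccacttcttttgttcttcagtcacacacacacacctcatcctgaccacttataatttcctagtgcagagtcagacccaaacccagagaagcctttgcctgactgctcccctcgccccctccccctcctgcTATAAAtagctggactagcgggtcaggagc
Gabra4: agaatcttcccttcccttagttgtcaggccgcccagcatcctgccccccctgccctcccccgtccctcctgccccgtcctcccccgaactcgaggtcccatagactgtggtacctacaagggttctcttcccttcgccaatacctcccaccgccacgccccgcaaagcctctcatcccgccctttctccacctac
The 6 motifs searched on both strands were TGACGTCA (cAMP response element), TCAAGGTCA (ESRR element), GCGTGGGCG and GCGGGGGCG (EGR sites), an E-box of the neuronal bHLH type (CAGATG) and, as the usual core promoter element, the TATA box (TATAAA). Gabra5 held the E-box beginning 223 bases before its start, and 14.4% of 32851 mouse starts hold that motif in the same window. Gabrb2 held the TATA box 30 bases before its first start, and Gabra3 held it on the opposite strand 123 bases before a start, or 235 bases before its other start, against 12.4% of all starts. The windows of Glrb, Gabra2, Gabra4 and Gabrb1 held none of the 6. GC content ran from 36.8% at the last Gabrb2 start to 70.0% at Gabra2, beside a median of 52.4% over all starts. Glrb had 20 CpG pairs in its 250 bases and both Gabra3 windows had 0, beside a median of 6 over all starts. These are descriptions of letters, and none of the deposited values measured binding or promoter use.

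Libraries held between 10368240 and 37287489 reads counted to genes, so 3 counts corresponded to between 0.0805 and 0.289 CPM (counts scaled to library size). The 6 SGN markers summed to between 608 and 4882 TPM (transcript level scaled to gene length and library size) in SGNs, 164 to 187 TPM in HCs and 23.8 to 213 TPM in glia. The 8 HC markers reached at most 782 TPM in an SGN library and were at least 5395 TPM in HCs, and the 5 glial markers reached at most 989 TPM in an SGN library and were at least 5563 TPM in glia. The 4 markers of GABA- or glycine-releasing neurons (Gad1, Gad2, Slc32a1 and Slc6a5) summed to at most 0.900 TPM in every SGN library. Some libraries stood apart for the members. In TPM, P30 replicate 1 was the highest of its age for 6 of 7 members, all but Glrb, and P14 replicate 2 was the highest of its age for 0 of 7. In CPM, P14 replicate 2 was the highest of its age for Glrb, at 141.9 CPM against 120.3 and 138.2 CPM. P30 replicate 1 also had the highest HC marker sum of its age, 360 TPM against 119 and 85.4, and the highest glial marker sum, 85.4 TPM against 37.5 and 4.98. Its HC sum was mostly Ocm, at 297 TPM. The median of the 8 HC markers was 7.78 TPM in it, against 9.76 and 7.07 TPM in replicates 2 and 3. In P30 replicate 1 the 5 connective tissue markers summed to 20.97 TPM, against 0.7417 and 0.1528 TPM in replicates 2 and 3. The 3 blood markers summed to 16.64 TPM there, against 0.2216 and 1.988 TPM. Results that rest on P30 replicate 1 or P14 replicate 2 are given with and without them. The HC maximum of 782 TPM was P14 replicate 1, with an HC median of 42.61 TPM against 6.633 and 7.825 TPM. Its glial sum was 487.7 TPM against 135.5 and 165.2 TPM. Its connective tissue sum was 70.17 TPM against 2.949 and 9.104 TPM, and its blood sum 1.828 TPM against 0.2111 and 5.098 TPM. It held 40 Gabra3 counts, against 4 and 0. The part of other cells in its member levels was not tested.

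Levels are given as TPM, which is per length and so allows genes to be compared. Glrb had the highest mean of the members from P1 on, and Gabra3 had the highest mean at E15.5. In P1 replicate 1, however, Gabra5 exceeded Glrb, at 12.4 against 10.3 TPM. The age with the highest mean was E15.5 for Gabra3, P1 for Gabra2, Gabra4, Gabra5 and Gabrb1, P14 for Glrb and P30 for Gabrb2. On the CPM scale Gabra5 had its highest mean at E15.5 and Glrb at P30, and the other 5 members kept their ages. For Glrb, P14 and P30 libraries overlapped in TPM, and the fit on counts gave a difference of 0.30 in favour of P30 that did not pass (adjusted p = 0.915). Of the 4 members highest at P1, 3 lie in the cluster on chromosome 5. In these pooled cells, fewer expressing cells and less RNA per cell cannot be told apart.

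**Figure D1:**
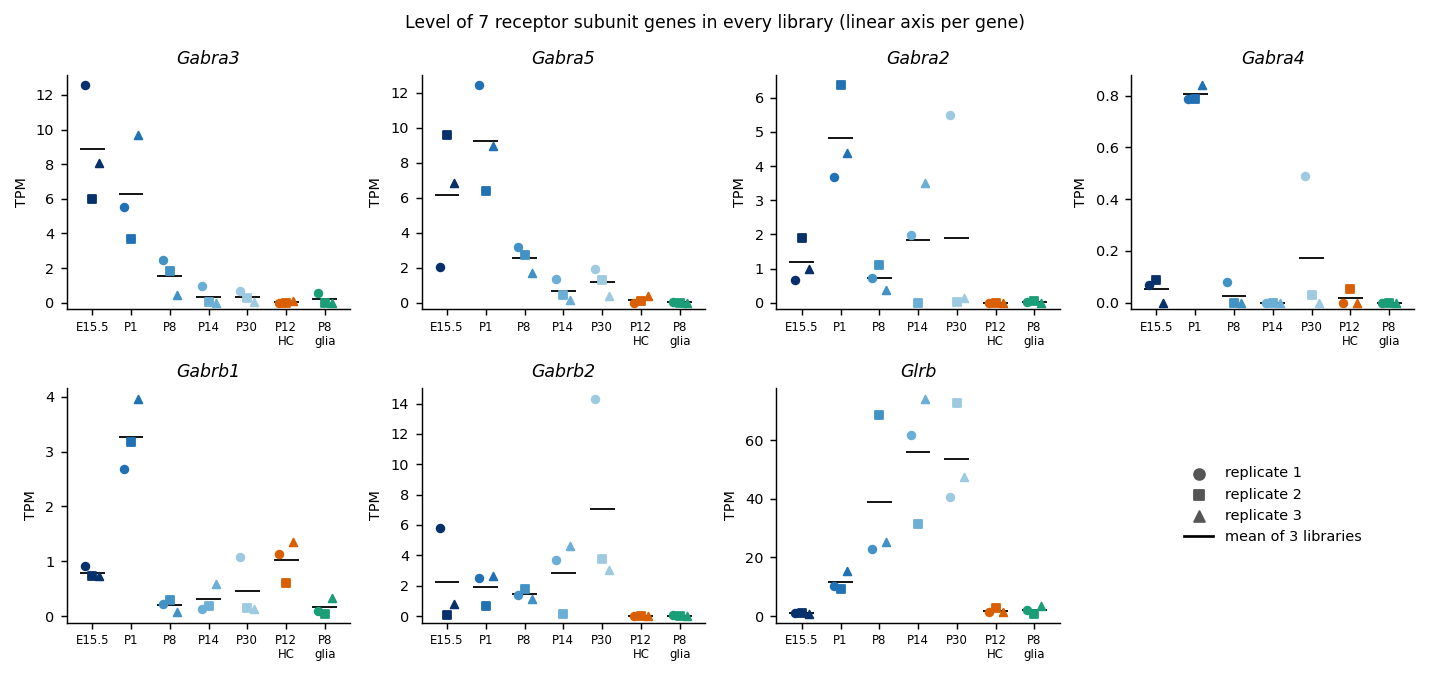
TPM of each member (linear axis from 0, a separate scale per gene) in the 21 libraries, with SGN ages from E15.5 to P30 followed by P12 HCs and P8 glia. Each point is a library and each bar the mean of 3. Glrb climbs from about 1 TPM at E15.5 to between 31.3 and 74.2 TPM at P14, Gabra3 and Gabra5 are lowest after P8, Gabra4 and Gabrb1 stand out at P1, and P30 replicate 1 (circle) lies far above the other P30 libraries for Gabra2, Gabra4 and Gabrb2.

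Gabra3 encodes the alpha3 subunit, which is abundant in embryonic and neonatal brain. It measured 12.5, 5.97 and 8.07 TPM in the E15.5 libraries, 5.51, 3.67 and 9.66 TPM at P1, and 2.46, 1.81 and 0.441 TPM at P8. At P14 it was 0.946, 0.0437 and 0 TPM, and at P30 it was 0.679, 0.275 and 0.0484 TPM. Every P1 library lay above every P8 library, while neighbouring ages before and after that step overlapped. The mean fell from 8.86 ± 3.36 TPM (SD, n = 3) at E15.5 to 0.334 ± 0.320 TPM at P30. In the fit the gene fell by 4.94 on the log2 scale from E15.5 to P30 (SE 0.95, adjusted p = 0.00064) and fell by 3.93 from P1 to P30 (SE 0.96, adjusted p = 0.0059). No single step between neighbouring ages passed: the change was -1.01 from E15.5 to P1, -1.71 from P1 to P8 and -3.80 from P8 to P14, with adjusted p of 0.132, 0.084 and 0.217. The 2 long-range falls were called without any 1 of the libraries involved, and ranged from -5.90 (without P30 replicate 1) to -4.16 (without P30 replicate 3) from E15.5, and from -4.87 to -3.13 without the same libraries from P1. The test of any difference among the ages also called Gabra3 (adjusted p = 0.00152), with a span between its highest and lowest fitted means of 6.52, which was 8.13 without P14 replicate 1 and 5.15 without P14 replicate 3.

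Gabra5 encodes the alpha5 subunit, best known from extrasynaptic receptors of hippocampal neurons. Its level was 2.02, 9.59 and 6.86 TPM at E15.5, 12.4, 6.39 and 8.95 TPM at P1, and 3.19, 2.74 and 1.69 TPM at P8. It was 1.37, 0.461 and 0.174 TPM at P14 and 1.92, 1.27 and 0.399 TPM at P30. All P1 libraries were above all P8 libraries, and all P8 libraries were above all P14 libraries, but the P8 and P30 libraries overlapped, as did P14 and P30. From P1 to P30 the gene fell by 2.46 on the log2 scale (SE 0.80, adjusted p = 0.0305) and from E15.5 by 2.22 (SE 0.84, adjusted p = 0.0444). Both calls lay close to the threshold. The fall from E15.5 was lost without E15.5 replicate 2 (adjusted p = 0.162), E15.5 replicate 3 (0.0663), P30 replicate 1 (0.0657), P30 replicate 2 (0.104) or P30 replicate 3 (0.142), and the fall from P1 was lost without P1 replicate 1 (0.0945), P30 replicate 1 (0.0602), P30 replicate 2 (0.0917) or P30 replicate 3 (0.122); the fall from E15.5 was -2.84 without E15.5 replicate 1 and -1.44 without replicate 2. The test of any difference among the 5 ages called Gabra5 with every single library left out (adjusted p = 0.0207 with all of them, at most 0.0497 without one), and its span of 3.81 became 2.98 without P14 replicate 3.

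Gabra2 encodes the alpha2 subunit, found at axon initial segments and synapses of forebrain neurons. It read 0.677, 1.88 and 0.985 TPM at E15.5, 3.68, 6.36 and 4.39 TPM at P1, and 0.733, 1.11 and 0.371 TPM at P8. The P14 libraries gave 1.99, 0 and 3.50 TPM and the P30 libraries 5.50, 0.0118 and 0.124 TPM. In TPM, the P1 libraries stood above all E15.5 and all P8 libraries with no overlap. In CPM they overlapped with E15.5, at 16.7, 30.4 and 14.4 CPM against 3.88, 17.4 and 4.96 CPM. The P14 libraries ran from 0 to just under the lowest P1 library and the P30 libraries ran from near 0 into the P1 range. None of the age comparisons called Gabra2: the change was 1.53 on the log2 scale from E15.5 to P1 (SE 1.08, adjusted p = 0.375), -2.34 from P1 to P8 (SE 1.11, adjusted p = 0.200) and -3.20 from P1 to P30 (SE 1.53, adjusted p = 0.135). Those estimates share one spread over all SGN libraries, and in a fit of the 6 P1 and P8 libraries alone the P1 to P8 fall was -2.35 with adjusted p = 0.0132. Without P30 replicate 1 and P14 replicate 2, left out together after their values were seen, Gabra2 fell by 5.93 from P1 to P30 (adjusted p = 0.00944) and by 4.42 from E15.5 to P30 (adjusted p = 0.0375). Leaving out only 1 library called neither fall, with a lowest adjusted p of 0.0758 from P1 and 0.16 from E15.5. P14 replicate 2 held 0 Gabra2 counts, where the other P14 libraries held 1.99 and 3.50 TPM. The SGN marker sum of that library was 1602 TPM against 3410 and 4882 TPM, but its TPM ran low relative to CPM. Glrb there was 31.3 TPM and 141.9 CPM, beside 61.9 and 74.2 TPM and 120.3 and 138.2 CPM in the other P14 libraries. Whether SGN content had a part in the Gabra2 difference was not tested.

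Gabra4 encodes the alpha4 subunit, a partner of the delta subunit in extrasynaptic receptors of thalamus and dentate gyrus. It was the scarcest member. Its P1 libraries agreed closely, at 0.789, 0.788 and 0.840 TPM, and every other SGN library was lower. Values were 0.0680, 0.0869 and 0 TPM at E15.5, 0.0813, 0 and 0 TPM at P8, 0 in the 3 P14 libraries, and 0.490, 0.0296 and 0 TPM at P30. The filter on low counts let Gabra4 through on the P1 libraries alone, so a difference from P1 was built into its passing. The fitted fall from P1 to P8 was -5.64 (SE 1.55, adjusted p = 0.0263), from a mean of 0.806 ± 0.030 TPM to a group with 12 counts in 1 library and 0 in the others, so its size depends on how zeros are handled. It was lost without P1 replicate 1 (adjusted p = 0.0634), P1 replicate 2 (0.0502), P8 replicate 2 (-4.78, 0.122) or P8 replicate 3 (-5.00, 0.106), was -7.15 without P8 replicate 1 (0.0208), and was not called by edgeR (0.204) or DESeq2 (0.215). The change from E15.5 to P1 was 4.01 with SE 1.38 (adjusted p = 0.0691), and from P1 to P30 -3.40 with SE 1.29 (adjusted p = 0.0605); without P30 replicate 1 the latter was -5.42 (adjusted p = 0.0227).

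The 4 alpha members together were at 16.2 ± 1.1 TPM (SD, n = 3) at E15.5, 21.1 ± 3.5 TPM at P1 and 4.87 ± 2.09 TPM at P8. Their sum was 4.31, 0.505 and 3.68 TPM in the P14 libraries and 8.60, 1.59 and 0.572 TPM in the P30 libraries. In TPM, all P1 libraries but replicate 2 were above every E15.5 library, and all libraries of both ages were above every later one. In CPM, Gabra3 was higher at E15.5 (20.9 to 36.9 CPM) than at P1 (8.98 to 16.2 CPM). Gabra2 and Gabra5 overlapped in CPM between these ages, and Gabra4 was higher at P1. The order of the E15.5 and P1 sums may therefore depend on the scale. The make-up of that sum differed by age. Gabra3 took 82.0%, 34.0% and 50.7% of it in the E15.5 libraries, 21.3% to 40.5% at P1, 17.6% to 38.0% at P8 and at most 21.9% at P14 and P30. The share of Gabra5 was 13.2%, 54.7% and 43.1% at E15.5, 37.1% to 55.5% at P1 and 48.4% to 67.6% at P8, and it ranged from 4.73% to 91.3% from P14 on. Gabra2 took 4.42% to 10.7% at E15.5 and 16.4% to 37.0% at P1, which did not overlap, and from 0% to 95.3% at P14 and P30. Gabra4 never passed 5.70%. The sum was under 2 TPM in 3 of the 6 libraries of P14 and P30, so the shares there rest on few reads.

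**Figure D2:**
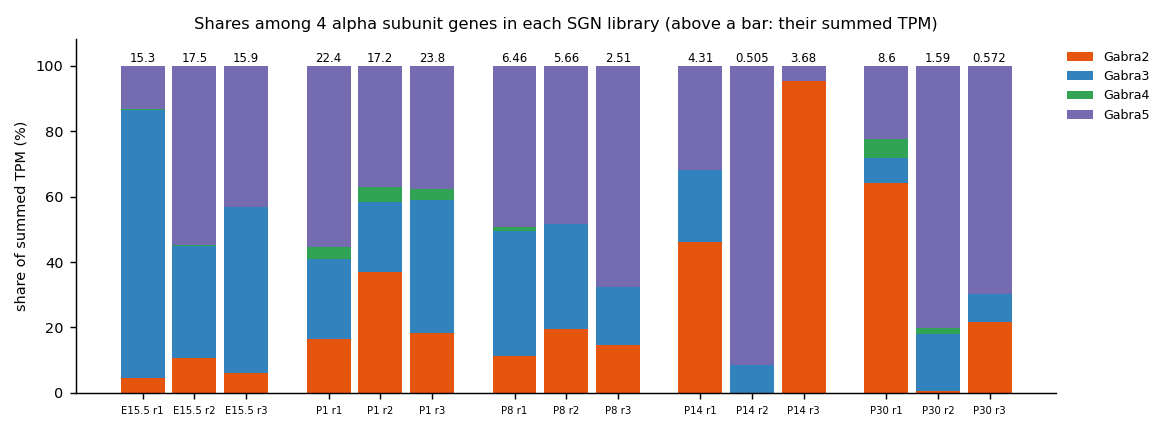
Share (%, linear axis from 0) of the summed TPM of Gabra2, Gabra3, Gabra4 and Gabra5 taken by each gene in the 15 SGN libraries, 1 stacked bar per library (r1 to r3, replicates), with the sum in TPM above each bar. Gabra3 and Gabra5 fill most of each bar at E15.5 and P8, Gabra2 takes 16.4% to 37.0% at P1, and bars of the same age differ most at P14 and P30.

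Gabrb1 encodes the beta1 subunit and measured 2.68, 3.18 and 3.97 TPM in the P1 libraries, above every other library of the series. It was 0.912, 0.722 and 0.734 TPM at E15.5, 0.214, 0.300 and 0.0682 TPM at P8, 0.134, 0.192 and 0.580 TPM at P14, and 1.07, 0.150 and 0.124 TPM at P30. The E15.5 libraries lay below the P1 and above the P8 libraries with no overlap on either side. The gene fell by 3.81 on the log2 scale from P1 to P8 (SE 0.70, adjusted p = 0.0020) and by 2.66 from P1 to P30 (SE 0.62, adjusted p = 0.00422). The rise into P1 was 1.53 (SE 0.50, adjusted p = 0.0554), just outside the threshold, and passed when genes were required to exceed 10 CPM (1.49, adjusted p = 0.041). Without P30 replicate 1 the P1 to P30 fall was -3.86 and without P30 replicate 2 it was -2.0, and it was called in both cases. From E15.5 to P30 the change was -1.13 (SE 0.72, adjusted p = 0.217), and -2.35 without P30 replicate 1, which was called (adjusted p = 0.0381). For the P1 to P30 fall, edgeR gave -2.18 with adjusted p = 0.0528. Gabra4, its head-to-head neighbour, had the pattern most like that of Gabrb1 among the members, with Pearson r = 0.93 of log2(TPM + 1) over the 15 SGN libraries, a description in which all points share library and depth.

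Gabrb2 encodes the beta2 subunit, found in many adult synaptic receptors. It was 5.81, 0.0900 and 0.771 TPM at E15.5, 2.51, 0.633 and 2.64 TPM at P1 and 1.41, 1.79 and 1.09 TPM at P8. At P14 it was 3.72, 0.128 and 4.64 TPM, and at P30 it was 14.3, 3.78 and 3.02 TPM. The P30 libraries were all above the P1 and P8 libraries, but overlapped with P14 and with E15.5, where replicate 1 alone exceeded 1 TPM. The fitted rise was 3.40 from E15.5 to P30 (SE 1.13, adjusted p = 0.0238) and 2.52 from P1 to P30 (SE 0.88, adjusted p = 0.0432). The rise from E15.5 was lost without E15.5 replicate 2 (2.19, adjusted p = 0.103), E15.5 replicate 3 (3.33, 0.0709) or P30 replicate 1 (2.52, 0.0697), and was 4.59 without E15.5 replicate 1 (0.0369). The rise from P1 was lost without P1 replicate 1 (2.98, adjusted p = 0.0926), P1 replicate 2 (2.02, 0.125), P1 replicate 3 (2.63, 0.0944) or P30 replicate 1 (1.67, 0.183). Neither rise was called by edgeR (adjusted p = 0.142 and 0.10) or DESeq2 (0.143 and 0.0669).

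Glrb had the largest fitted change among the members between E15.5 and P30. The 3 E15.5 libraries measured 1.02, 0.927 and 0.827 TPM. The P1 libraries measured 10.3, 9.12 and 15.3 TPM, and the P8 libraries 23.0, 68.7 and 25.1 TPM. At P14 the level was 61.9, 31.3 and 74.2 TPM and at P30 it was 40.6, 72.6 and 47.4 TPM. Libraries of E15.5, P1 and P8 did not overlap, while those of P8, P14 and P30 did. The log2 change was 3.10 from E15.5 to P1 (SE 0.64, adjusted p = 0.00637) and 2.02 from P1 to P8 (SE 0.27, adjusted p = 0.00015), and then 0.52 from P8 to P14 (SE 0.21, adjusted p = 0.340) and 0.30 from P14 to P30 (SE 0.21, adjusted p = 0.915). Over the whole range, E15.5 to P30, Glrb rose by 5.93 (SE 0.61, adjusted p = 1.53e-06), which is 61.1-fold. The rise was called without any 1 library of its groups, with values between 5.62 and 6.26. With libraries weighted by quality, the E15.5 to P1 step was 3.08 with adjusted p = 0.0636, the one setting in which a rise of Glrb between ages was lost. Glial marker transcripts were higher in the P8 SGN libraries, at 486 to 989 TPM, than in the P1 libraries, at 32.3 to 120 TPM. Glia held 0.774 to 3.26 TPM of Glrb. The mitochondrial share of counts was 9.57% to 13.5% at E15.5 and 17.9% to 22.1% at P30, and the HC marker sum was 30.1 to 175 TPM at E15.5 and 469 to 546 TPM at P1. The part of these in the changes of Glrb and the other members with age was not tested.

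Glycine receptor alpha transcripts had a higher mean at P1 than at E15.5, as Glrb did, but did not follow Glrb after P1. Summed over Glra1 to Glra4 they were 1.91 ± 1.07 TPM (SD, n = 3) at E15.5, 6.15 ± 2.16 TPM at P1, 1.83 ± 1.42 TPM at P8, 0.601 ± 0.255 TPM at P14 and 0.629 ± 0.185 TPM at P30. Glra2, which encodes the alpha2 subunit of immature receptors, made up most of the P1 sum at 4.01, 4.63 and 7.0 TPM and fell by 4.32 on the log2 scale from P1 to P30 (SE 0.85, adjusted p = 0.00115). The ratio of Glrb to the summed alpha level was 1.19, 0.498 and 0.276 in the E15.5 libraries, 2.13, 1.83 and 1.77 at P1 and 22.1, 19.8 and 25.4 at P8. It reached 80.1, 101 and 103 at P14 and 95.3, 92.2 and 70.3 at P30. These ratios did not overlap between E15.5, P1, P8 and the later ages, although with 3 libraries against 3 an exact permutation test cannot give a two-sided p below 0.10. The late alpha sums rest on few reads, with Glra2 at 4 to 14 counts in the P14 libraries. In HCs the ratio was 0.873, 0.613 and 0.319.

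**Figure D3:**
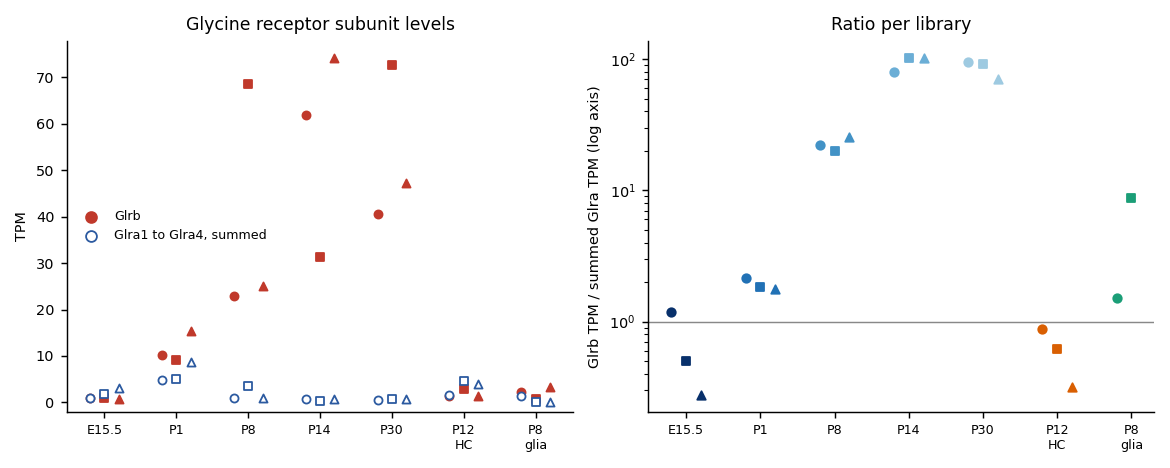
Left, TPM (linear axis) of Glrb (filled) and of Glra1 to Glra4 summed (open) in each library; right, their ratio (log axis), with the line at 1 and point shapes for replicates. The ratio is at most 2.13 up to P1, 19.8 to 25.4 at P8 and 70.3 to 103 from P14 on; glial replicate 3, with no Glra counts, has no ratio.

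The members called differed by step. From E15.5 to P1, 1 of 7 members was called, Glrb, which was higher, where 8.26% of the 15113 genes tested were called, 5.08% as higher and 3.18% as lower. From P1 to P8, 3 were called, with Glrb higher and Gabra4 and Gabrb1 lower, against 7.44% of all genes, 4.29% as higher and 3.15% as lower. The median log2 change was -1.71 over the 7 members and -0.01 over all genes. Neither P8 to P14, with 0.536% of genes called (0.251% higher, 0.285% lower), nor P14 to P30, with 0.0596% (0.0331% higher, 0.0265% lower), called any member with limma-voom, edgeR or DESeq2; at an unadjusted p under 0.05 there were 2 and 1 (Gabra3, Glrb and Gabrb2). Across longer spans, E15.5 to P30 called 4 members, with Glrb and Gabrb2 higher and Gabra3 and Gabra5 lower, where 34.6% of all genes were called (18.4% higher, 16.2% lower), and P1 to P30 called 5, with Gabrb1 also lower, where 19.6% were (10.2% higher, 9.4% lower). The test of any age difference called 5 of 7, Gabra3, Gabra4, Gabra5, Gabrb1 and Glrb, where 34.1% of genes were called; Gabra4 was lost there without P1 replicate 2 (adjusted p = 0.0508), by edgeR (0.0553), by DESeq2 (0.0623) and with sample weights (0.0815). All 7 members passed the filter on low counts, 1 of them at P1 alone, so these counts cover members that some age had carried through.

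**Figure D4:**
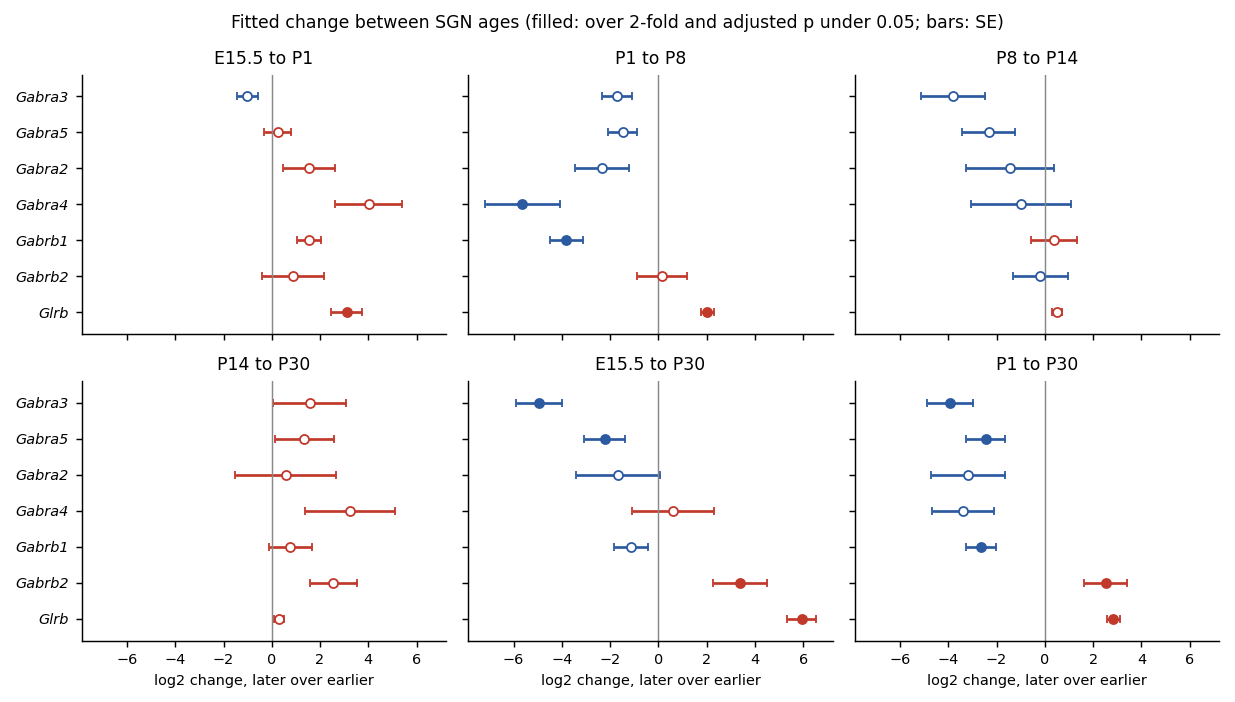
Fitted log2 change of each member between SGN ages (x axis; later over earlier), with bars for 1 SE; filled points passed 2-fold and adjusted p under 0.05, red is higher and blue lower. Glrb is filled in 4 panels, all but P8 to P14 and P14 to P30, and in the P1 to P30 panel 3 members lie filled on the left (Gabra3, Gabra5 and Gabrb1) and 2 on the right (Gabrb2 and Glrb).

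Against P12 HCs, 5 members were higher in SGNs averaged over the 5 ages, where 26.8% of the 17531 genes tested were called, with 10.5% higher and 16.2% lower, at over 4-fold and adjusted p under 0.01. Gabrb2 and Gabra2 were at 0 counts in the 3 HC libraries. With 3 counts over the HC group as the floor, Gabrb2 was at least 191-fold and Gabra2 at least 151-fold higher in SGNs. Gabra3 had 2 counts in HCs, a ratio of 220 with a 95% counting interval of 60.9 to 1815, which covers counting error only; its fitted difference of 6.15 was 6.82 without HC replicate 3. Glrb was at 1.39, 2.82 and 1.30 TPM in HCs, a log2 difference of 4.45 (SE 0.65, adjusted p = 6.85e-06). The E15.5 SGN libraries were below the HC libraries in TPM and overlapped with them in CPM. Gabra5 had 0, 2 and 8 counts in HCs and a difference of 5.50 (SE 1.04, adjusted p = 0.000139), which was 4.62 without HC replicate 1 and 6.38 without HC replicate 3. Gabra2 was called with all libraries (adjusted p = 0.00189) but not without HC replicate 1 (0.0111), 2 (0.0145) or 3 (0.0155).

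The exceptions were Gabra4 and Gabrb1. Gabrb1 was 1.14, 0.599 and 1.35 TPM in HCs, below every P1 SGN library and above every P8 SGN library, and the SGN average differed by 0.34 (SE 0.61, adjusted p = 0.665). Gabra4 held 0, 2 and 0 counts in HCs and differed by 2.05 (SE 1.20, adjusted p = 0.156). At the nearest ages, P14 SGNs against P12 HCs, 2 members were called, Gabrb2 at 7.87 (SE 1.67, adjusted p = 0.000636) and Glrb at 6.12 (SE 0.66, adjusted p = 2.84e-07), where 23.1% of genes were called (10.9% higher, 12.2% lower). The Gabrb2 value was 7.25, 8.99 and 7.23 without P14 replicate 1, 2 and 3 in turn and was called each time. Gabra2 was 5.86 with adjusted p = 0.0385 there, and 8.57 with adjusted p = 0.000273 without P14 replicate 2, which held none of it.

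Against P8 glia, 4 members were higher in the SGN average, Gabra3, Gabra5, Gabrb2 and Glrb, where 24.7% of genes were called (14.3% higher, 10.4% lower). The same 4 were called for P8 SGNs against P8 glia, where 20.9% of genes were called (13.4% higher, 7.53% lower). Glrb was at 2.20, 0.774 and 3.26 TPM in glia and differed by 2.75 from the SGN average (SE 0.55, adjusted p = 0.000298) and by 3.90 from P8 SGNs (SE 0.55, adjusted p = 1.21e-05). Gabra5 had 2 counts in glia, against a mean of 8.15 CPM in SGNs. All 36 Gabra3 counts in glia came from replicate 1, which also had the highest SGN marker sum of the glial libraries, 213 TPM against 36.6 and 23.8 TPM; the part of SGN transcripts in it was not tested. The Gabra3 difference of 4.09 (SE 1.16, adjusted p = 0.00596) rose to 5.96 without glial replicate 1 and was lost without replicate 2 (3.09, adjusted p = 0.0741) or replicate 3 (3.18, 0.0701), and for P8 SGNs it was lost without SGN replicate 1 (3.87, 0.0331), SGN replicate 2 (4.52, 0.015), glial replicate 2 (3.42, 0.0685) or glial replicate 3 (3.51, 0.0641) and was 6.29 without glial replicate 1. Neither Gabra3 difference was called by edgeR (2.55, adjusted p = 0.0883, and 2.62, 0.136, for P8 SGNs) or DESeq2 (2.62, 0.0198, and 2.67, 0.0745). Gabrb2 had 4 counts in glia and a difference of 6.49 (SE 1.49, adjusted p = 0.0011), 7.30 without glial replicate 1 and lost without glial replicate 2 (6.04, 0.0207) or 3 (6.11, 0.0219); for P8 SGNs it was lost without glial replicate 1 (7.08, 0.0117), 2 (5.82, 0.0338) or 3 (5.90, 0.0351). Gabra2 was 4.60 higher than in glia with adjusted p = 0.0362, and 5.16 with adjusted p = 0.00415 without P14 replicate 2. When libraries were weighted by quality, 0 members passed against glia in the SGN average and 1, Glrb, in the P8 comparison. Calls over all 17531 genes fell as well. In the SGN average 583 genes were called higher with weights and 2504 without them, and for P8 SGNs 742 and 2342.

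**Figure D5:**
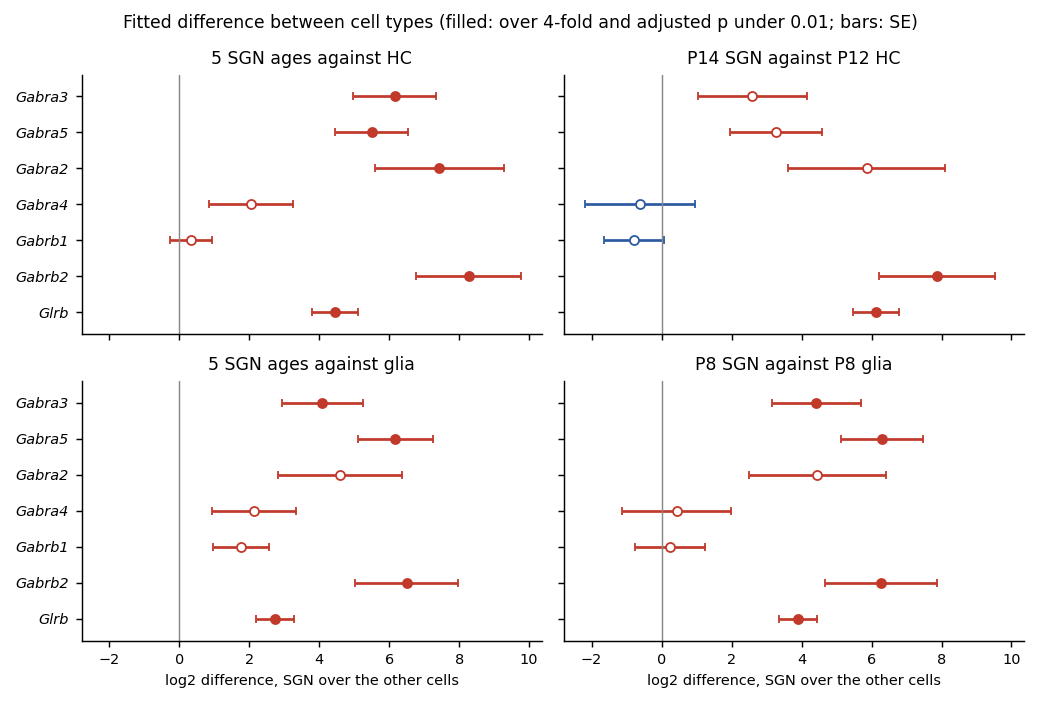
Fitted log2 difference of each member, SGN over HC (top) or over glia (bottom), with bars for 1 SE; filled points passed 4-fold and adjusted p under 0.01. Glrb and Gabrb2 are filled in all 4 panels, and Gabra4 and Gabrb1 are open in all 4, with Gabrb1 between -0.80 and 1.76.

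Genes that serve these receptors were tabulated from lists written with earlier results of these data known. Of 17 other GABA-A and glycine receptor subunit genes, 4 passed the filter among SGNs. From P1 to P30 1 was called higher and 1 lower, the latter being Glra2, beside 10.2% and 9.4% of all genes. Gabrp, a subunit gene of epithelial tissues, was at 42.1 TPM in P14 replicate 1 and at most 2.07 TPM in every other library, and Gabre reached 30.6 TPM in glial replicate 3 and at most 4.01 TPM elsewhere. Of 12 scaffold and trafficking genes, 5 rose and 1 fell from E15.5 to P30, beside 18.4% and 16.2% of all genes. Among them Iqsec3, an inhibitory postsynaptic exchange factor that binds gephyrin, rose by 2.85 (adjusted p = 6.56e-07). Shisa7, which encodes a GABA-A receptor auxiliary protein, fell by 5.30 (adjusted p = 7.09e-07), from a mean of 33.2 TPM to 0.757 TPM. Of the GABA-B receptor genes, Gabbr2 rose by 1.78 from E15.5 to P1 (adjusted p = 3.01e-05) and Gabbr1 was not called between ages. Of 5 cation-chloride cotransporter genes, 1 was called higher from E15.5 to P30, near the 18.4% of all genes. Of 11 genes for making, moving or degrading GABA and glycine, 4 passed the filter among SGNs. Of these, 1 was called higher and 1 lower from E15.5 to P30, beside 18.4% and 16.2% of all genes. Gad1 and Gad2, the GABA-synthesising enzymes, averaged 6.34 and 7.16 TPM in HCs and at most 0.419 TPM in every SGN age.

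The genes whose pattern over the 21 libraries was most like each member were ranked by Pearson r of log2(TPM + 1) among 14511 genes. For Glrb these were Olfm3 (r = 0.973), Lgi3 (0.968) and Lhfpl3 (0.966). For Gabra3 they were Shisa7 (0.976), Celf5 (0.963) and Dcx (0.960), and for Gabra5 they were Rnf112 (0.938), Hpca (0.936) and Dcx (0.904). For Gabra2 the genes included Prph (0.884) and Slit1 (0.853). They were, for Gabrb1, Cdhr1 (0.870), Efnb3 (0.835) and Gm43461 (0.829), and for Gabra4 Fgf23 (0.848), Tmem100 (0.829) and Gm27804 (0.818). Gabrb2 had the weakest neighbours with Gabra4, Plxnc1 (0.843), Amigo2 (0.823) and Celf4 (0.823). Among the members, Gabra3 and Gabra5 varied together over the 15 SGN libraries (r = 0.817), Gabra3 and Glrb went opposite ways (r = -0.824), and Gabra2 was most like Gabrb1 (r = 0.776). The points share library, depth and age, so these values describe the pattern and carry no test.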

How the data were processed

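RNA from labelled, hand-picked or sorted cells was amplified (Ovation RNA-Seq V2) and sequenced. The authors aligned reads with STAR 2.4.0i to mm10 and deposited raw read counts per GENCODE vM15 gene, made with featureCounts; strand and pair settings are not given in the sources used here. Of genes with 1 to 20 counts, 64.3% to 75.0% per library had an even count, so counting intervals and the floor of 3 counts, which cover counting error only, may be too narrow. Nothing states that replicates came from separate animals, so p-values measure the spread between these libraries.

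From the deposited counts, TPM were computed with the deposited gene lengths. Main tests used limma-voom (limma 3.58.1, edgeR 4.0.16 for TMM factors, R 4.3.3), two-sided, with Benjamini-Hochberg adjustment over all genes tested. Between ages, 15 SGN libraries and 15113 genes (CPM over 1 in all replicates of an age) entered, and a call needed over 2-fold and adjusted p under 0.05. Between cell types, 21 libraries and 17531 genes entered, and a call needed over 4-fold and adjusted p under 0.01. Alternatives were edgeR's quasi-likelihood test, DESeq2 1.42.0, sample weights, other scaling and filters, a replicate block, only the libraries compared, and leaving out each library. On simulated counts for P1 to P8 over 15113 genes, 33 of 50 genes changed 8-fold were recovered. Over 17531 genes this was 23 of 50 for SGNs against HCs and 12 of 50 for P8 SGNs against glia. The changed genes were drawn only from those above a minimum mean count, so these rates do not cover the scarcest genes. By the correlation of their deviations in the SGN fit, replicate numbers pair P30 with P8 (0.396, 0.188 and 0.162) and with P14 (0.393, 0.244 and 0.104, not in the fit of 21 libraries). The other pairs of postnatal SGN ages were also positive at each number, as for P1 with P8 (0.371, 0.066 and 0.163). They were not taken as paired, so a weaker link between their replicates may remain. Pairs with E15.5, HCs or glia were not taken as paired either. Named genes were the members, other subunits with a group mean over 1 TPM, genes of the 4 lists called in a comparison (examples are given), and the 3 genes most like each member. The members and lists were chosen with earlier results of these data known. Some genes that this rule names are not reported here.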

Additional observations from a re-analysis of the deposited data

How the results depend on the processing

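Of 33 called member values, 0 changed sign under any alternative and 17 were called under all of them. From E15.5 to P1, where 1 member was called, 0 were called with sample weights, 2 with a minimum of 10 CPM and 2 with the replicate block. Over all genes, 1248 of 15113 were called in the main fit and 552 with sample weights. The minimum of 10 CPM gave 1049 of 9349 and the replicate block 1448 of 15113. From E15.5 to P30, 2 of the 4 calls were made when only the 6 libraries compared were fitted, and from P1 to P30, 3 of 5 by edgeR and 3 with no filter. Against glia, 0 members were called with sample weights for the SGN average and 1 for P8 SGNs, where 4 were called in each. Calls over all genes fell there from 4326 to 2017 and from 3662 to 1942. For P14 SGNs against HCs, DESeq2 called 4 where 2 were called. The causes were not tested. Leaving out 1 library at a time gave 1 to 1 members from E15.5 to P1, 2 to 3 from P1 to P8, 0 to 0 from P8 to P14 and from P14 to P30, 2 to 4 from E15.5 to P30, 3 to 4 from P1 to P30, 4 to 5 for any age, 4 to 5 against HCs, 2 to 5 against glia, 2 to 3 for P14 SGNs against HCs and 2 to 4 for P8 SGNs against glia. With the replicate block, 0 members were called from P14 to P30, as without it, and 6 were called for any age against 5. With P30 replicate 1, P14 replicate 2 and glial replicate 1 left out together, chosen after seeing the data, 5 members were called from E15.5 to P30 (Gabra5 lost, Gabra2 and Gabrb1 gained), 5 from P1 to P30 (Gabra5 and Gabrb2 lost, Gabra2 and Gabra4 gained) and 5 against glia (Gabra2 gained). Scaling by library size alone moved the median log2 change of all genes from E15.5 to P30 to -0.49 and the split of all calls from 2778 higher and 2446 lower to 1698 and 3973. A count of 0 or a few in a group leaves the size of a fold open.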

Other observations

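Gabra6, which encodes the alpha6 subunit of cerebellar granule cells, held 50 counts (2.08 TPM) in E15.5 replicate 1 and 0 counts in the other E15.5 libraries.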
